A study of Mus musculus with 6 samples.

Results

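The 10 genes described here encode Jarid2 and 9 further subunits of Polycomb repressive complex 2 (PRC2): Ezh1, Ezh2, Eed, Suz12, Rbbp4, Rbbp7, Mtf2, Phf19 and Aebp2. They are 10 of the 21887 protein-coding genes of the reference. They were chosen by name, and each was followed through every ATAC-seq peak that overlapped its gene body or 10 kb on either side. Peaks of different libraries that overlapped were merged into regions. The 10 windows held 29 of the 49048 regions of the series.

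ATAC-seq marks open chromatin by letting a transposase cut and tag accessible DNA. The cells were immortalised mouse atrioventricular cushion mesenchymal (AVM) cells, which model the embryonic tissue that forms heart valves and septa. They came from the H- 2Kb-tsA58 transgenic strain, which carries a temperature-sensitive viral T antigen, and all libraries share this background, passage 6 and 54000 cells per library. The normal-glucose group was kept in 5.5 mM glucose and the high-glucose group in 25 mM glucose, each for 48 h, with 3 libraries per group. The comparison addresses whether high glucose, as in maternal diabetes, alters open chromatin in cells of the developing heart. The deposited peak lists held 22156 to 40350 peaks in 5 libraries and 66 in normal-glucose replicate 2, which fell under a minimum of 1000 peaks, had 0 peaks in the 10 windows and entered no comparison. This left normal-glucose replicates 1 and 3, called NG1 and NG3, and high-glucose replicates 1, 2 and 3, called HG1, HG2 and HG3. NG3 had the longest list. No label says that replicates were separate cultures, so any p-value reflects the spread of these libraries alone, which may be technical. Of 10 cushion mesenchyme markers 8 had a peak at the gene start (at either gene end where the reference gives no start) in all 5 libraries and the other 2, Twist1 and Postn, in 4. None of 5 cardiomyocyte markers had such a peak in any library, and Kdr, in 4 libraries, was the only one of 5 endothelial markers to have one. Of 4 blood markers only Spi1 had one, in all 5. By the same measure, 37.2% of all 21887 protein-coding genes had a peak in all 5 libraries and 46.8% had none in any. A marker without a peak is thus in a common state.

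PRC2 methylates lysine 27 of histone H3 (H3K27), a mark of silenced developmental genes. Ezh1 and Ezh2 are its alternative catalytic subunits, Suz12 is the scaffold, Eed binds the methylated histone tail, and Rbbp4 and Rbbp7 are histone-binding proteins shared with other complexes. Jarid2 and Aebp2 define a second form of the complex, apart from the form with the Polycomb-like proteins Mtf2 and Phf19. Jarid2 lacks demethylase activity despite its Jumonji domain, and mouse embryos without it develop heart defects.

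Promoter sequences of 6 members are shown because they cover the range of openness at the gene start, from strong in every library to almost absent. Each runs 5′ to 3′ along the gene, from 250 bases before to 50 after the start, and comes from the RefSeq table for GRCm38.p6. Coordinates of that assembly are those of mm10. All 10 members matched that table, with 14 promoter windows. Capitals mark matches, on either strand, to fixed motifs: the E2F motif spelled as TTTCCCGC, as TTTGGCGC or else as TTTCGCGC, the GC box spelled as GGGCGG, the CCAAT box, and the motif of the factor YY1 spelled as AAGATGGCG.
Jarid2: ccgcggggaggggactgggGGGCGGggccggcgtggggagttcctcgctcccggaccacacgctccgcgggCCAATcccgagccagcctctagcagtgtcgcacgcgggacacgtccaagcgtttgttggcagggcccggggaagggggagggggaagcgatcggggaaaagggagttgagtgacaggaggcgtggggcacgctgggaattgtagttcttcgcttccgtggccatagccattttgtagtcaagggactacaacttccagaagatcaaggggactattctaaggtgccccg
Ezh2: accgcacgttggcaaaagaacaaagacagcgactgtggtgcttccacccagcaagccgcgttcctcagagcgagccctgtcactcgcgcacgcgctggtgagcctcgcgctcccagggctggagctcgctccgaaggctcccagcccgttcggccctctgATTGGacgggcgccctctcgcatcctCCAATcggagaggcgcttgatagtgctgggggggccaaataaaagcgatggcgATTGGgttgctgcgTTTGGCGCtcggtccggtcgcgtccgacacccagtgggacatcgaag
Suz12: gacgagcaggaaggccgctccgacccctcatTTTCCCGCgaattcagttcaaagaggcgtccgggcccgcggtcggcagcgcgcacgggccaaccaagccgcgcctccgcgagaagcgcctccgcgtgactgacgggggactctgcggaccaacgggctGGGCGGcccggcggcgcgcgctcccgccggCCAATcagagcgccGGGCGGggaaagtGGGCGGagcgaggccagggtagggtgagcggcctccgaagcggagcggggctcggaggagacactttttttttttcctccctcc
Eed: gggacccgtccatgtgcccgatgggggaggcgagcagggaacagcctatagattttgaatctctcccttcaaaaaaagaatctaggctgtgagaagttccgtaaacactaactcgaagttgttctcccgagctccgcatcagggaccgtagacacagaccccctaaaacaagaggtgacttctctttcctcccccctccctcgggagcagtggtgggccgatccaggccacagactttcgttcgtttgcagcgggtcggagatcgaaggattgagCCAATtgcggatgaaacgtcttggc
Ezh1: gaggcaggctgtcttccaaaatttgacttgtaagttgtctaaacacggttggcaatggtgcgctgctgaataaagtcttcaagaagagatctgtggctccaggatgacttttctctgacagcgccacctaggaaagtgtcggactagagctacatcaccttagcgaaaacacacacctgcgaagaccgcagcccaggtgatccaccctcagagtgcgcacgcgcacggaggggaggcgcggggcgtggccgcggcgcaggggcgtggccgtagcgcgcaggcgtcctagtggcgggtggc
Phf19: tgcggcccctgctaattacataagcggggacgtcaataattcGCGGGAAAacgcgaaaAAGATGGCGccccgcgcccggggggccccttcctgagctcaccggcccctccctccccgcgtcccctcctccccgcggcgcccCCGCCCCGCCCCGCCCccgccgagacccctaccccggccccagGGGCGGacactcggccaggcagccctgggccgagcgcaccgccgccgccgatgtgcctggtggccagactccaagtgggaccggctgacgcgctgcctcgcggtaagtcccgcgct
The windows lie at chr13:44730524-44730823 on the plus strand (Jarid2), chr6:47594981-47595280 on the minus strand (Ezh2) and chr11:79992856-79993155 on the plus strand (Suz12). Those of Eed, at chr7:89980927-89981226, Ezh1, at chr11:101226414-101226713, and Phf19, at chr2:34913927-34914226, are all on the minus strand.

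At the first start of each gene, CCAAT was matched in 6 of the 10 members, Jarid2, Ezh2, Suz12, Eed, Rbbp4 and Rbbp7, and in 37.4% of all 32851 promoter windows. An E2F motif was matched in Ezh2, Suz12 and Phf19, against 1.84% of all windows. E2F factors drive genes of the cell cycle. The YY1 motif was matched in Phf19 (1.40% of all windows), and the GC box in 6 members (35.7% of all windows). Ezh1 and Aebp2 matched no motif of the set at the first start. The set also held motifs of ETS factors (CCGGAAG), of NRF1, of CREB (TGACGTCA) and of AP-1 (TGANTCA), the E-box (CACGTG) and the TATA box (TATAAA). In the 6 printed windows matches overlapped only among 3 neighbouring GC boxes of Phf19. The first-start windows were rich in G and C, with a median of 64.3% against 52.7% in all windows, and 9 of the 10 members lay above the latter. Aebp2 was the exception at 48.0%, but the window of its second start stood at 65.7% and held the GC box. A match is a description of letters, not a bound site.

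Most PRC2 genes were open at the start in both glucose conditions. A peak within 1 kb of an annotated start was present in all 5 libraries for 7 of 10 members: Jarid2, Ezh2, Eed, Suz12, Rbbp4, Rbbp7 and Mtf2. The same held for 38.6% of the 17492 protein-coding genes whose start was given. Ezh1 had a start peak in 4 libraries, Aebp2 in 4 and Phf19 in 1, so no member lacked one throughout, as 46.1% of those genes did. No member had a start peak in every library of 1 condition and none of the other, a pattern met in 0.0572% of genes for high and 0.612% for normal glucose.

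**Figure D1:**
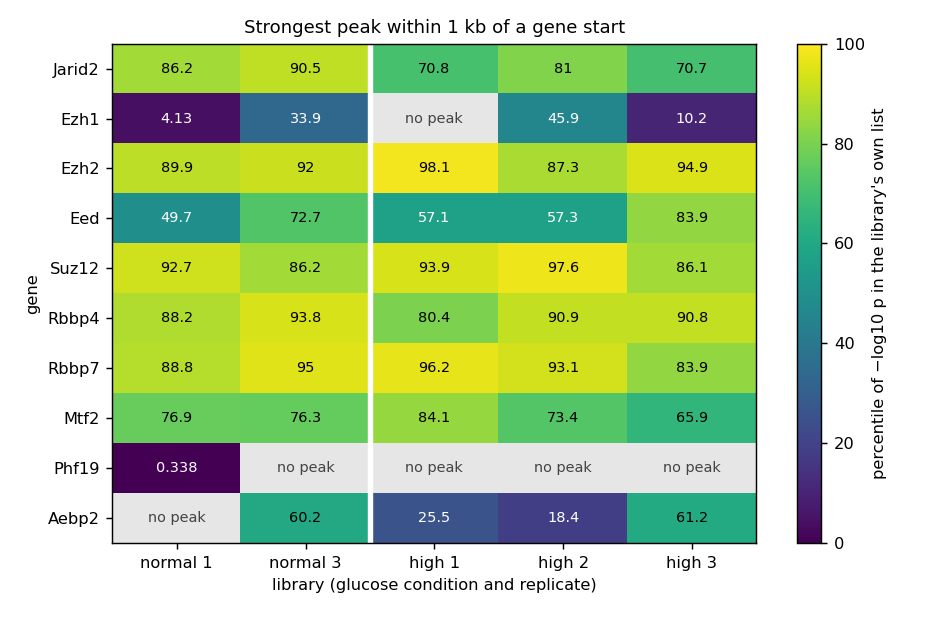
Strongest peak within 1 kb of a gene start for each of the 10 genes (rows) in the 5 libraries (columns, normal glucose left of the white line, high glucose right), as its percentile in the library's own list by the authors' −log10 p. Ezh2, Suz12, Rbbp4 and Rbbp7 stand at or above 80.4 in every library, while Ezh1, Phf19 and Aebp2 each lack a peak in at least 1.

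Peaks were ranked within each library by the authors' −log10 p, given as the percentage of that library's peaks at or below the value. Percentiles order genes within 1 library and show no change between libraries. The fold enrichments below are also the authors' values, each a peak's height over the local background of its own library. Regions at a start that were present in all 5 libraries had a median percentile between 78.2 and 87.8, depending on the library. Ezh2, Rbbp4 and Rbbp7 lay at or above that median in each of the 5 libraries, and Suz12 in 4 of them. Jarid2 reached it in NG1 and NG3, Mtf2 in HG1 and Eed in HG3, while Ezh1, Aebp2 and Phf19 never did. Of members with a start peak, 5 of 9 reached it in NG1, 4 of 9 in NG3 and 5 of 8 in HG1. In HG2 it was 4 of 9 and in HG3 5 of 9. As a group the members were thus near the share that a median gives by definition.

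The catalytic subunits lay far apart. The Ezh2 start region, chromosome 6, 47594965 to 47595434 (mm10), reached percentiles of 89.9 in NG1, 92.0 in NG3, 98.1 in HG1, 87.3 in HG2 and 94.9 in HG3. Its fold enrichment was 11.9 and 14.0 in normal glucose and 18.6, 11.8 and 15.5 in high glucose. The values of the 2 conditions overlapped. The region also covers the start of F830010H11Rik, a long non-coding RNA gene on the opposite strand that begins 179 bp away, so openness of the 2 starts cannot be told apart.

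The Ezh1 start region, chromosome 11, 101226271 to 101226486, was weak where it was present. It reached percentiles of 4.13 in NG1, 33.9 in NG3, 45.9 in HG2 and 10.2 in HG3, and HG1 had no peak. Ezh2 ranked above Ezh1 in all 4 libraries that held both. With every list shortened to the 22149 strongest peaks, Ezh1 kept a start peak in 2 libraries, HG2 and HG3, and Ezh2 in 5.

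The scaffold gene Suz12 had a single region in its window, chromosome 11, 79992767 to 79993312, over the start. It reached percentiles of 92.7 in NG1, 86.2 in NG3, 93.9 in HG1, 97.6 in HG2 and 86.1 in HG3. All 5 libraries were high, and the conditions overlapped.

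The histone-binding subunit genes Rbbp4 and Rbbp7 were close to Suz12 in rank. Rbbp4 stood at 88.2 and 93.8 in normal glucose and 80.4, 90.9 and 90.8 in high glucose, at chromosome 4, 129335055 to 129335660. Its region reaches into the neighbouring gene Zbtb8os, which runs the other way. Rbbp7 stood at 88.8 and 95.0 in normal glucose and 96.2, 93.1 and 83.9 in high glucose, at chromosome X, 162760002 to 162760525. By median percentile over the libraries the order was Rbbp7 at 93.1, Suz12 at 92.7, Ezh2 at 92.0 and Rbbp4 at 90.8, followed by Jarid2 at 81.0, Mtf2 at 76.3 and Eed at 57.3. Over the libraries that held a start peak, Aebp2 had a median of 42.8 and Ezh1 of 22.0. The ranges of every 2 neighbours in this order overlapped over the libraries. Compared within each library, Rbbp4 ranked above Jarid2 in every one, and Eed above Aebp2 in each that held both. The other neighbours changed places between libraries, so their order is not resolved. All Ezh1 values lay below all values of the 7 genes open in every library.

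Eed had 3 regions within 1 kb of its start, of which 1 was found in every library. A region of chromosome 7, 89980503 to 89980834, with its median summit 412 bp into the gene, was present in all 5. It reached percentiles of 49.7 in NG1, 72.7 in NG3, 57.1 in HG1, 46.5 in HG2 and 53.5 in HG3. A second region, 89980910 to 89981067, lay on the start itself. On it, HG1, HG2 and HG3 stood at 45.8, 57.3 and 83.9, while NG1 stood at 2.52 and NG3 had no peak. All 3 high-glucose libraries were thus higher in their own lists than the single normal-glucose peak, a pattern not counted over all regions. The third region, 89981254 to 89981372, lay 351 bp upstream and was found in NG3 alone, at the 16.2 percentile.

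The region on the Eed start was specific to high glucose under some settings. With lists of equal length, or with a −log10 q of at least 5, it was found in HG1, HG2 and HG3 but not in NG1 or NG3. Of all regions, 0.956% had that pattern with lists of equal length and 0.156% with the stricter q. Eed nonetheless kept a peak within 1 kb of its start in all 5 libraries under both settings. With lists of equal length the nearby region 89980503 to 89980834 was in every library. The pattern therefore concerns 1 region and not the Eed start as a whole. In lists of equal length 11 member regions were in all 5 libraries (30.1% of all regions) and 0 were specific to normal glucose (1.62% of all regions). In the lists as deposited NG1 also had a peak in the region on the Eed start, with a −log10 q of 2.36. Without NG1 that Eed region was likewise specific to high glucose, and without NG3 a region of Aebp2 was. With 2 and 3 libraries and no read counts, whether openness at the Eed start differed between the conditions was not tested.

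Mtf2, a Polycomb-like protein that recruits the complex to CG-rich DNA, also had a single region, at chromosome 5, 108065508 to 108065793, over its first start. It stood at 76.9 and 76.3 in normal glucose and at 84.1, 73.4 and 65.9 in high glucose, with the conditions overlapping. Its second start, 12491 bp downstream, had no peak.

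Phf19, the other Polycomb-like member, lacked a peak at its start in 4 libraries. The exception was NG1, with a peak 608 bp downstream of that start at the 0.338 percentile, near the bottom of that list. The start used, 34913976, lies inside the annotated gene, which reaches to 34914353, and so does the promoter window. None of the 300 bases of the Phf19 promoter window lay under a region; 74.3% of them were G or C, and the window held the E2F and YY1 motifs shown above. A region inside the gene, chromosome 2, 34904891 to 34905489, was strong in all 5 libraries, with its median summit 8.9 kb from the start. It stood at 82.1 and 94.1 in NG1 and NG3 and at 88.1, 78.7 and 80.7 in HG1, HG2 and HG3. The reference used here gives 1 start for Phf19 and no exons, so this region is placed only as inside the gene.

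Aebp2, a partner in the second form of the complex, had no peak in its whole window in NG1. The other 4 libraries shared a region at chromosome 6, 140623350 to 140623752, within 1 kb of the first of its 3 starts. It stood at the 60.2 percentile in NG3 and at 25.5, 18.4 and 61.2 in HG1, HG2 and HG3. The second start lies 2246 bp and the third 4222 bp beyond the first, and none of the 3 promoter windows of Aebp2 lay under a region. High glucose thus had this region in 3 of 3 libraries and normal glucose in 1 of 2. The only other Aebp2 region, 140683151 to 140683284, lies in the neighbouring gene Gm30215 and was found in NG3 alone, at the 10.9 percentile.

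Jarid2, the longest member at 190.9 kb, held 8 regions, the most of the 10 genes. This was 3.79 regions per 100 kb, close to the 3.38 of the median protein-coding gene measured the same way. Its start region, chromosome 13, 44730498 to 44730770, reached percentiles of 86.2 in NG1, 90.5 in NG3, 70.8 in HG1, 81.0 in HG2 and 70.7 in HG3. The matching fold enrichments were 10.6 and 12.0 in normal glucose and 8.12, 9.90 and 8.26 in high glucose. Both normal-glucose values lay above the 3 high-glucose values on each scale, but the scales are set within each library and no test applies. The share of all regions separated in this way was not counted, so the separation is not shown to be particular to Jarid2. The region ends just before the first start. Of the promoter window printed above it covered 247 of 300 bases, and the second start, 497 bp downstream, had none of its window covered.

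Inside Jarid2, 2 regions were present in every library. The region at 44869534 to 44869668 had its summit 138.8 kb from the start. It reached percentiles of 78.7 in NG1, 91.9 in NG3, 75.9 in HG1, 67.6 in HG2 and 85.2 in HG3. In NG3, HG1 and HG3 it ranked above the start region. A weaker region 2.8 kb from the start, 44733433 to 44733769, was the other, at the 37.4 and 69.3 percentile in normal glucose and 48.4, 78.2 and 29.2 in high glucose.

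The other 5 Jarid2 regions varied between libraries. Those at 177.0, 178.2 and 182.3 kb from the start were present in 4, 3 and 3 libraries. Each was held by both normal-glucose libraries, none by HG3, and they were found in 2, 1 and 1 high-glucose libraries, in that order. HG3 accordingly had 3 peaks in the Jarid2 window, against 5 and 6 in HG1 and HG2 and 6 and 8 in NG1 and NG3. With lists of equal length NG3 lost the region at 182.3 kb, which was then in NG1 and HG2 only. A region 3.2 kb from the start was in NG3 and HG2, and one at 55.8 kb in NG3 alone. Genes most like Jarid2 in their peak numbers over the 5 lists, by Euclidean distance, were Nfatc2 at 1.0 and 3110082I17Rik, Cdc42bpg, Fyn and Myo1e at 1.41. No gene had a distance of 0.

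**Figure D2:**
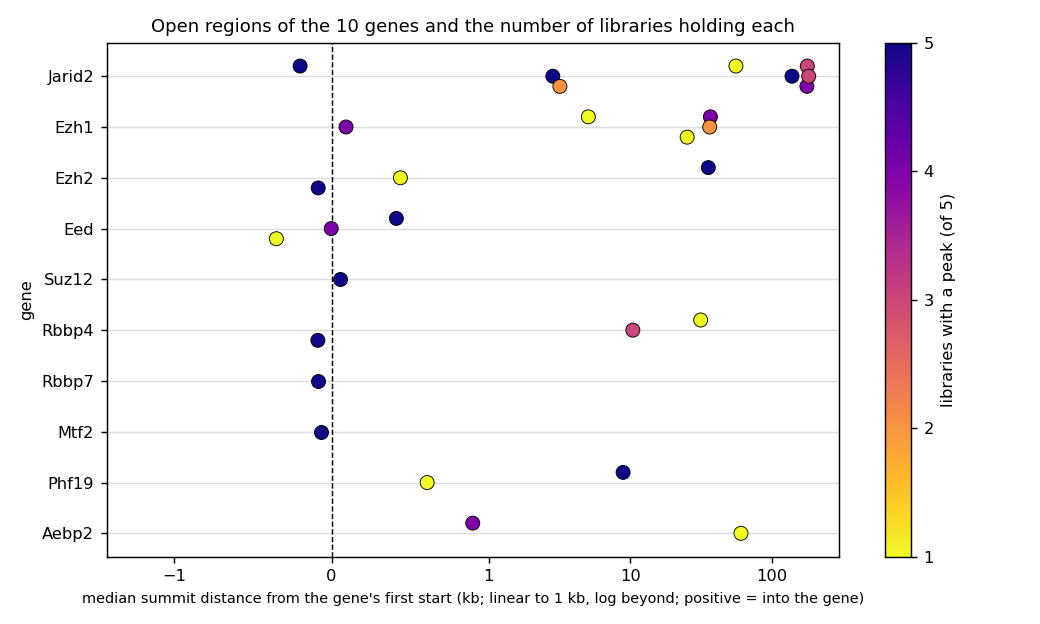
Median summit distance of each region from the first start of its gene, in kb (linear to 1 kb and logarithmic beyond, positive into the gene), with 1 row per gene and colour for the number of libraries, of 5, that held the region. Points are offset vertically only to keep them apart. Regions held by all 5 libraries lie near the start in 7 genes and inside the gene in Jarid2, Ezh2 and Phf19.

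Summits of the Ezh2 start region fell within 6 bp of each other in the 5 libraries, at 85, 84, 89, 90 and 84 bp upstream of the start in NG1, NG3, HG1, HG2 and HG3. Of 10164 regions with exactly 1 peak in every library, 0.718% had summits that close, and the median spread was 61 bp. The start used for Ezh2, 47595030, lies inside the annotated gene, which reaches to 47595270. The Ezh2 summits, though upstream of that start, therefore lie inside the annotated gene. CCAAT matches in the Ezh2 promoter begin 90, 64 and 11 bases upstream of the start, the first and last on the reverse strand. Whether any of them relates to the place of the summits was not tested. Summits spread over 11 bp at an Ezh2 region 35.6 kb inside the gene, and over 15 bp at the Jarid2 region 138.8 kb from its start. Of all such regions 4.73% had summits within 15 bp. At Jarid2 the start summits spread over 33 bp, at Suz12 over 118 bp and at Rbbp7 over 115 bp. These regions were singled out after their values were seen.

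**Figure D3:**
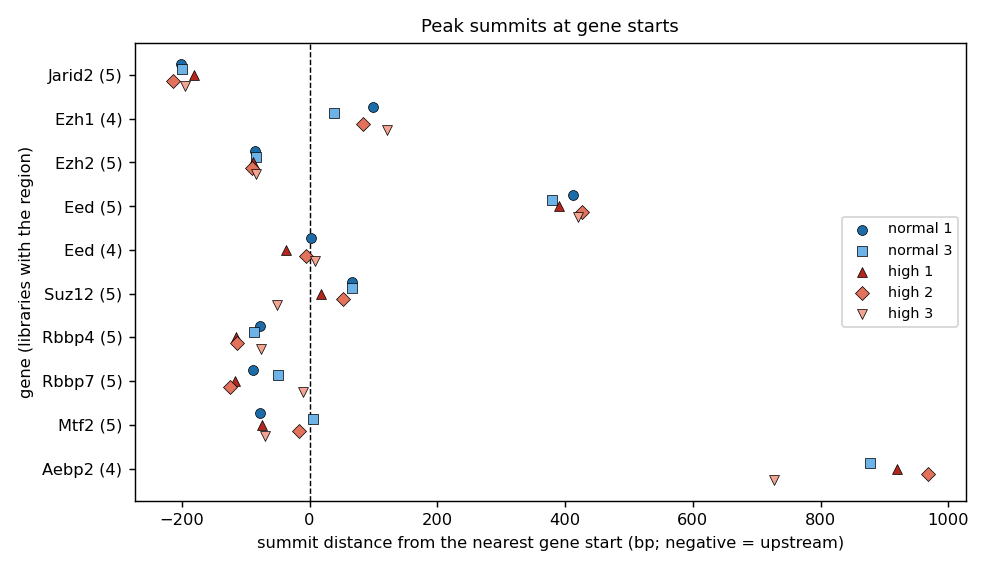
Distance of each peak summit from the nearest gene start, in bp (negative is upstream), for the regions at a start held by at least 4 libraries. Colours and symbols give the 5 libraries. The 5 Ezh2 summits lie within 6 bp, whereas those of Suz12 cover 118 bp and those of Aebp2, in 4 libraries, 241 bp.

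A short region in HG2 alone, chromosome 6, 47594527 to 47594666, had its summit 438 bp downstream of the Ezh2 start, at the 9.20 percentile. The Ezh2 region 35.6 kb inside the gene, 47559369 to 47559547, was present in all 5 libraries. It reached percentiles of 32.7 in NG1, 50.5 in NG3, 68.6 in HG1, 84.0 in HG2 and 53.2 in HG3. All 3 high-glucose percentiles lay above both normal-glucose ones, a description only, since ranks come from lists of different length. By fold enrichment the conditions overlapped, at 5.27 in NG1 and 6.62 in NG3 against 7.97 in HG1, 11.6 in HG2 and 6.26 in HG3. The share of all regions separated in this way by percentile was not counted. Outside the start, Ezh1 had 4 regions, none in all 5 libraries. The most widely held of these, chromosome 11, 101189492 to 101189756, lies inside the neighbouring gene Cntnap1. It stood at 53.6 and 55.2 in NG1 and NG3 and at 2.27 and 24.1 in HG2 and HG3, with no peak in HG1. A neighbouring region, 101189997 to 101190141, also in Cntnap1, was found in NG1 at the 43.1 and in HG2 at the 12.6 percentile. With a −log10 q of at least 5 the former was the single region specific to normal glucose, a pattern shared by 4.13% of all regions at that threshold. Rbbp4 had 2 weaker regions away from its start, of which the stronger, inside the gene, was present in NG1, NG3 and HG2.

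Over all 10 genes, no region was specific to a condition. Of the 29 regions 11 were present in all 5 libraries (25.1% of all regions), 8 in a single library (39.7% of all regions) and 10 in 2 to 4. Of regions held by every high-glucose library there were 0 that NG1 and NG3 both lacked (0.167% of all regions), and 0 had the reverse pattern (3.73% of all regions). At a start, 7 of 13 regions were in all 5 libraries, near the 50.4% of all regions at a protein-coding start. Away from a start it was 4 of 16, against 16.5%. These 4 were the 2 inside Jarid2 and those inside Ezh2 and Phf19. Of the 8 regions in a single library, 4 were in NG3, 2 in NG1, and 1 each in HG1 and HG2.

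The 0 counts changed when single libraries were left out. Without NG1 the counts were 1 for high glucose, the region on the Eed start, and 4 for normal glucose. Those 4 were the regions found in NG3 alone, the library with the longest list. Without NG3 the counts were 1, at Aebp2, and 2, the latter being the regions found in NG1 alone. Normal-glucose counts were 1 without HG1 and 1 without HG2. Shares of all regions with these patterns were not computed with a library left out, so these counts have no background beside them.

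**Figure D4:**
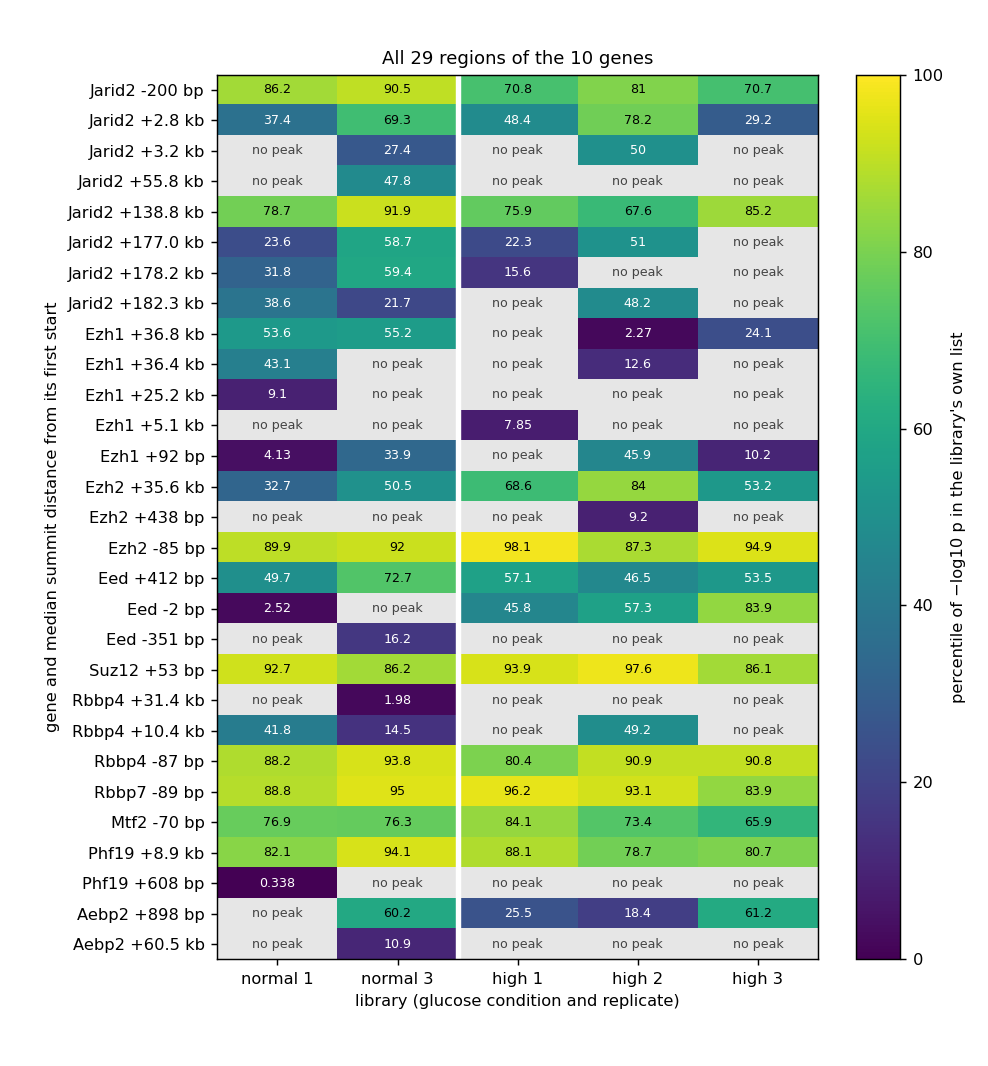
All 29 regions of the 10 genes (rows, with the median summit distance from the gene's first start) in the 5 libraries (columns, normal glucose left of the white line). Numbers and colours give the percentile of the peak by −log10 p in the library's own list, and grey cells have no peak. No row is filled on 1 side of the line and empty on the other.

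A difference between the conditions in the number of peaks in the 10 windows was not detectable with these libraries. NG1 and NG3 had 21 and 23 such peaks and HG1, HG2 and HG3 had 17, 21 and 17. The high-glucose mean was 18.3 ± 2.31 (SD, n = 3) and the normal-glucose mean 22.0 ± 1.41 (SD, n = 2), so high minus normal glucose was -3.67 (exact permutation test, two-sided, p = 0.3). No p below 0.1 can be reached with 2 libraries against 3. Per 10000 nuclear peaks of the list, the values were 8.66 and 5.70 in normal glucose and 7.68, 8.40 and 7.53 in high glucose. On this scale the difference had the other sign, 0.686 (exact permutation test, two-sided, p = 0.8), with means of 7.87 ± 0.465 (SD, n = 3) in high and 7.18 ± 2.09 (SD, n = 2) in normal glucose. The high-glucose values lay between the 2 normal-glucose ones. With lists of equal length the difference in peak number was 0.667, and without NG3 the difference per 10000 peaks was -0.792.

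**Figure D5:**
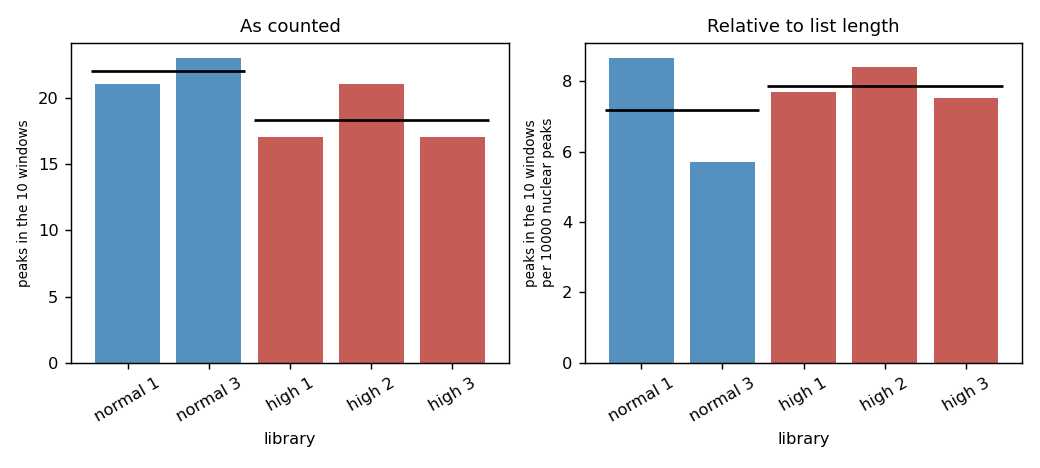
Peaks in the 10 gene windows in each library, as counted (left) and per 10000 nuclear peaks of that library's list (right), as bars, blue for normal and red for high glucose, with black lines at the group means. Counts run from 17 to 23, and the direction between the group means differs between the panels.

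Other Polycomb genes were widely open at the start in both conditions. For genes with no start in the reference either gene end was counted, and by this measure 37.2% of all 21887 protein-coding genes had a peak in all 5 libraries and 46.8% in none. Of 5 further PRC2 partners 4 did, Phf1, Epop, Lcor and Lcorl, while Ezhip, an inhibitor of the complex, had no peak in any library. Of 22 genes of PRC1, the complex that ubiquitylates histone H2A and recognises the PRC2 mark, 16 had a peak in all 5 libraries, 4 in some and 2, Cbx7 and Bcor, in none. Of 14 genes of enzymes and other proteins that counteract Polycomb repression, 11 had a peak in all 5 and 2, Uty and Nsd1, in none. Nsd1 has no start in the reference and was counted by its gene ends. Kdm6b, an H3K27 demethylase also counted by its gene ends, had a peak in NG3 alone, at the 2.22 percentile. Its paralog Kdm6a, counted by its start, had one in all 5, at or above the 60.9 percentile. In none of these lists was a gene open in every library of 1 condition and none of the other. Among genes with a given start that pattern was rare, at 0.0572% for high and 0.612% for normal glucose. It was not counted over all genes with either gene end, so its absence from short lists says little.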

How the data were processed

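Open chromatin peaks of 6 ATAC-seq libraries were analysed, 50 bp paired-end per the labels. Per the submitters' processing notes the build was mm10 and the tools included MACS2 2.1.0, Bowtie 1.0.0, cutadapt 1.0, DiffBind 1.12.3, Picard 1.90, SAMtools 0.1.19 and FastQC. The settings, the shift for transposase cuts and the treatment of duplicates are not given in the sources used here. There is 1 deposited list per library. The authors' values for a peak are its score, the fold enrichment as a ratio, its p-value and its q-value, both as −log10, and the deposited −log10 q reached down to 1.30. Without read counts in the lists the depth is unknown, and a longer list can hold weaker peaks.

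Peaks on chromosomes 1 to 19, X and Y that overlapped by at least 1 bp were merged. Gene coordinates and starts were those of RefSeq GRCm38.p6. For Ezh2, Phf19, Aebp2 and Mtf2 the first start used lies inside the annotated gene rather than at its outer end. All 10 members were named, with every start region, every region specific to a condition, and for each the region elsewhere whose lowest percentile was highest. Further member regions were described after their values were seen. The 5 genes most like Jarid2 were named by distance in peak number. Members, lists and tests were chosen with earlier results of these data known. Difference tests were exact permutations over libraries. Alternatives were lists of equal length, a minimum −log10 q of 5, all 6 libraries, each library left out, other windows (gene body, 2 kb, 25 kb, and 250 bp or 2.5 kb at starts), merging within 200 bp, summits within 250 bp, and same-numbered pairs. Computations used SciPy 1.17.1, pandas 2.3.3 and numpy 2.4.6 under Python 3.11.15, with plots by matplotlib 3.10.9. Merging was tested on simulated data and checked with bedtools 2.31.1.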

Additional observations from a re-analysis of the deposited data

How the results depend on the processing

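With a −log10 q of at least 5 there was 1 region specific to each condition, in place of 0. These were the region on the Eed start for high glucose and the Ezh1 window region in Cntnap1 for normal glucose. Lists of equal length gave 1 for high glucose, and a difference in peak number of 0.667 in place of -3.67. With all 6 libraries no region and no gene start was present in all (0 and 0), because normal-glucose replicate 2 had no peak there, and the difference in peak number was 3.67. Leaving out each library gave 0 to 1 high-glucose and 0 to 4 normal-glucose specific regions, 11 to 13 regions and 7 to 8 gene starts present in all, -5.0 to -2.67 peaks, and -0.792 to 2.16 per 10000 peaks. Shares of all regions were not computed with a library left out. The difference in peak number kept its sign but moved to -1.5 with a −log10 q of at least 5, -1.67 in gene bodies and -6.83 with 25 kb windows. The difference per 10000 peaks was 1.85 with that q, 0.301 with equal lists, 3.08 with all 6 libraries, 1.08 in gene bodies and 0.377 with 25 kb windows. Counts of regions and gene starts moved by no more than 1.5 times under the other windows and merging rules.

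Same-numbered libraries share only a number. As a replicate block, the 2 pairs (replicates 1 and 3) gave differences of -5.0 peaks (p = 0.5, exact permutation of signs, the smallest possible) and 0.421 per 10000 peaks (p = 1, exact). The lists give presence and rank within a library, so changes in strength between conditions were not measured.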

Other observations

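Among PRC1 genes, the alternative catalytic subunits also stood at different ranks. Rnf2, which carries most of the ubiquitin ligase activity of the complex, had a start peak at or above the 98.7 percentile in all 5 libraries. Its paralog Ring1 had one in 2 libraries, at the 58.2 percentile in NG3 and 8.29 in HG2. For the paralogs Bmi1 and Pcgf2 there was a start peak at or above the 55.7 percentile in all 5 libraries for Bmi1 and in 2 libraries for Pcgf2, at the 35.0 and 38.7 percentile in NG3 and HG2. These pairs were chosen after their values were seen, and no test was made.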
